A study of Homo sapiens with 48 samples.

Results

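Expression of 9 genes of the NF-kappaB system was read in the human cell line H1975, which derives from a non-small cell lung cancer and carries a mutated EGFR gene, after treatment with gefitinib, with 1 of 2 preparations, or with both. The genes were taken by symbol from the authors' count table: the inhibitors NFKBIA, NFKBIE and TNFAIP3, the subunits NFKB1, NFKB2, RELA and RELB, the survival gene BIRC3 and the adhesion gene ICAM1. All 9 were among the 27978 symbols of the table and among the 15789 genes that passed the filter on low counts. Gefitinib is an inhibitor of the EGFR kinase. CKI is known elsewhere as compound kushen injection, and YFSJ is named in the labels by these letters alone. Of the 16 groups, 2 were untreated cells at 0 h and at 24 h. The other 14 were all taken at 24 h. Single agents were 50 and 75 µM gefitinib, 1 and 2 mg/mL of CKI, and 2.5 and 5 mg/mL of YFSJ, and 8 groups joined each dose of a preparation to each dose of gefitinib. Each group had 3 libraries of this 1 line, called biological replicates in the labels. The labels do not say that they came from separate cultures, so the p-values measure the spread between these libraries, which may be technical. The labels name no vehicle control, so every treated group was set against untreated cells or against another treated group.

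NF-kappaB is a family of paired transcription factors built from RELA, RELB, REL and the products of NFKB1 and NFKB2. Inhibitors of the I-kappaB type, among them the products of NFKBIA and NFKBIE, hold the pairs in the cytoplasm until an upstream kinase marks the inhibitor for destruction, after which the factors enter the nucleus. In the alternative branch of the pathway the NFKB2 precursor is processed and works together with RELB. NFKBIA and TNFAIP3 are themselves switched on by NF-kappaB and act as feedback: the first retains the factor again, and the second, a ubiquitin-editing enzyme, dampens the signal upstream. BIRC3, an inhibitor of apoptosis that also acts as a ubiquitin ligase in this pathway, and ICAM1, a surface protein that binds leukocyte integrins, are textbook target genes. These are messenger RNA levels, which do not measure the activity or location of the proteins.

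Sequences upstream of the genes are shown because several of the 9 moved together and because NF-kappaB binding motifs have long been described in some of these promoters. The RefSeq table used here (GRCh38.p14) held 11 windows of 300 bases around transcript starts for 7 of the 9 genes, and NFKBIE and RELB were not matched. Capitals mark matches, on either strand, to the NF-kappaB consensus of 10 letters or, in ICAM1, to the 9-letter motif GGAAATTCC, whose letters overlap the consensus match in NFKBIA and NFKB1. The 9-letter motif was added after the first search. Where an annotated exon of the gene covers the site, only the site and its flanks are shown. All sequences run 5′ to 3′ along the gene, on the plus strand except for NFKBIA on the minus strand.

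TNFAIP3 (chr6:137867188-137867217, plus strand): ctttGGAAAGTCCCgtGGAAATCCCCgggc
NFKBIA (chr14:35404750-35404999, minus strand): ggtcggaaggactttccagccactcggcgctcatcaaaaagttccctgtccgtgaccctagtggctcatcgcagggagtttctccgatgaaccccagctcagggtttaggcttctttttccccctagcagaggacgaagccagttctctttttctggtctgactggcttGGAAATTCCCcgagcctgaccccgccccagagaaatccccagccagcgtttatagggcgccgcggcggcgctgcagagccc
NFKB1 (chr4:102501109-102501328, plus strand): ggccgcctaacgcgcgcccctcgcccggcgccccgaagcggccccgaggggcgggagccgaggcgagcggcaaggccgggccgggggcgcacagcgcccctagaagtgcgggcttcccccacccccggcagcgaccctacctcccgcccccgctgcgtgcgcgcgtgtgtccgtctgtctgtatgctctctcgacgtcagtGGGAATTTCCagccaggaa
NFKB2 (chr10:102394462-102394491, plus strand): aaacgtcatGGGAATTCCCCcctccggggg
NFKB2 (chr10:102394490-102394519, plus strand): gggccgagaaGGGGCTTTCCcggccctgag
BIRC3 (chr11:102317234-102317449, plus strand): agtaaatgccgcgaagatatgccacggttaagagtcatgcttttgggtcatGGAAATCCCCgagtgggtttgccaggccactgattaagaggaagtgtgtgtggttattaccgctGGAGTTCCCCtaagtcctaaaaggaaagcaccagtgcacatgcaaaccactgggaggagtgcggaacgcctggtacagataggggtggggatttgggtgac
ICAM1 (chr19:10270924-10270953, plus strand): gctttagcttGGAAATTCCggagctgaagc

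The consensus matched 6 of the 11 windows, in 5 of the 7 genes, against 11.3% of all 35116 windows of this length in the table. The genes were chosen as part of the NF-kappaB system and include known targets, so nothing is read from that difference. GGAAATTCC or its reverse complement matched the windows of NFKBIA, NFKB1 and ICAM1 and 0.461% of all windows. Since it was added after the first search, and its matches in NFKBIA and NFKB1 lie within the consensus matches, nothing is read from that share. In TNFAIP3 the matches began at bases -67 and -55 from the transcript start, and in BIRC3 at -199 and -135. The single consensus match of NFKBIA began at -81 and that of NFKB1 at -49. NFKB2 had matches at -107, -106 and -78 in the window shown, of which the first and second overlap, and at -176 and -21 in a window downstream. In ICAM1 the 9-letter motif began at -186. A match is a string of letters and was not tested as a binding site in these cells, and RELA had none in the windows searched.

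Totals ran from 16428398 to 26264162 counts per library, and levels are given as CPM, counts relative to the library total after scaling between libraries by TMM factors. A floor of 3 counts corresponded to 0.114 to 0.183 CPM and covers counting error only. The catalogue number in the labels is that of the breast cancer line MCF-7. All 8 markers of the lung line had a median of at least 1 CPM, against 0 of 6 luminal breast markers. Of 10 leukocyte markers 2 reached that level, CSF1R and CD14, while PTPRC had at most 8 counts in any library. In 10 libraries ALB, the serum albumin gene, had 2581 to 3557 counts, against 0 to 8 in the other 38, and the summed liver markers had 191 to 276 CPM there and at most 14.3 CPM elsewhere. The ALB set took in 2.5 mg/mL YFSJ and the higher doses of CKI and gefitinib together, each with 3 of 3 libraries. It held 2 of 3 libraries where 2 mg/mL CKI met 50 µM gefitinib, and 2 of 3 where 1 mg/mL met 75 µM. Mitochondrial RNR2 took 1.22% and 1.69% of counts in the first and second libraries at 0 h, against 0.457% in the other one, and 2.18% in the second library that joined 2.5 mg/mL YFSJ to 75 µM gefitinib. Its share also moved with the treatment: the untreated 24 h libraries had 0.464% to 0.582%, and the ranges were 0.674% to 0.886% for 75 µM gefitinib, 0.919% to 1.16% with 2 mg/mL CKI, 1.39% to 1.56% with these together, and 0.323% to 0.384% with 5 mg/mL YFSJ. Its part in the results was not tested. Where 5 mg/mL YFSJ met 50 µM gefitinib, library 3 had a lower level than libraries 1 and 2 for every gene of the 9 except NFKBIE. Where leaving out such a library, or a term for the ALB set, changed a call of the 9 genes, the value is given beside the result.

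Per kilobase of transcript, the median over the 16 groups was highest for NFKBIA at 49.5 CPM per kb and for NFKB2 at 46.9 CPM per kb. RELA, the main activating subunit, followed at 33.9 CPM per kb, ICAM1 at 30.4 and RELB at 21.6. NFKB1 lay at 11.7 CPM per kb, TNFAIP3 at 5.26, NFKBIE at 4.05 and BIRC3 at 0.671. BIRC3 was thus the scarcest of the 9, and its level in untreated cells at 24 h rested on 16 to 25 counts per library. RELA exons overlap those of AP001362.2 on the opposite strand and ICAM1 exons overlap AC011511.2 and AC011511.5 (GENCODE 29). The libraries were unstranded, so reads of these pairs cannot be told apart.

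The 9 genes differed in how far they ranged over the 16 groups. BIRC3 ranged most, from a mean of 1.08 CPM in untreated cells at 24 h to 12.1 CPM with 2 mg/mL CKI and 75 µM gefitinib, a ratio of 11.2. TNFAIP3 was lowest and highest in the same 2 groups, at 9.72 and 71.5 CPM, a ratio of 7.35. The combination of 2 mg/mL CKI and 75 µM gefitinib also held the highest mean of NFKB2, NFKBIE, NFKBIA and RELA. NFKB2 ranged 5.59-fold, from 59.9 CPM at 0 h to 335 CPM, and NFKBIE 4.11-fold, from 6.52 to 26.8 CPM. By contrast ICAM1, RELB and NFKB1 were highest with 5 mg/mL YFSJ and 75 µM gefitinib. ICAM1 ranged 4.52-fold, up to 148 CPM, and RELB 4.32-fold, up to 76.3 CPM. NFKBIA ranged 2.84-fold, RELA 1.45-fold and NFKB1 1.36-fold.

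When the 16 groups were put in the order of their means, the ranges of the 3 libraries overlapped between every pair of neighbours for NFKB1, in 15 of 15 steps. They overlapped in 14 of 15 steps for NFKB2, RELA and RELB, in 13 for NFKBIE, 11 for BIRC3, 9 for TNFAIP3 and 8 for NFKBIA and ICAM1. Both separate steps of NFKBIE and 2 of the 6 of TNFAIP3 lay at the top of the order. TNFAIP3 stepped from 37.7 CPM with 5 mg/mL YFSJ and 75 µM gefitinib to 43.1 CPM with 2 mg/mL CKI and 50 µM gefitinib, and then to 71.5 CPM with 75 µM. NFKBIE stepped from 16.6 CPM with 2 mg/mL CKI alone to 20.9 and 26.8 CPM as gefitinib at 50 and 75 µM was added.

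**Figure D1:**
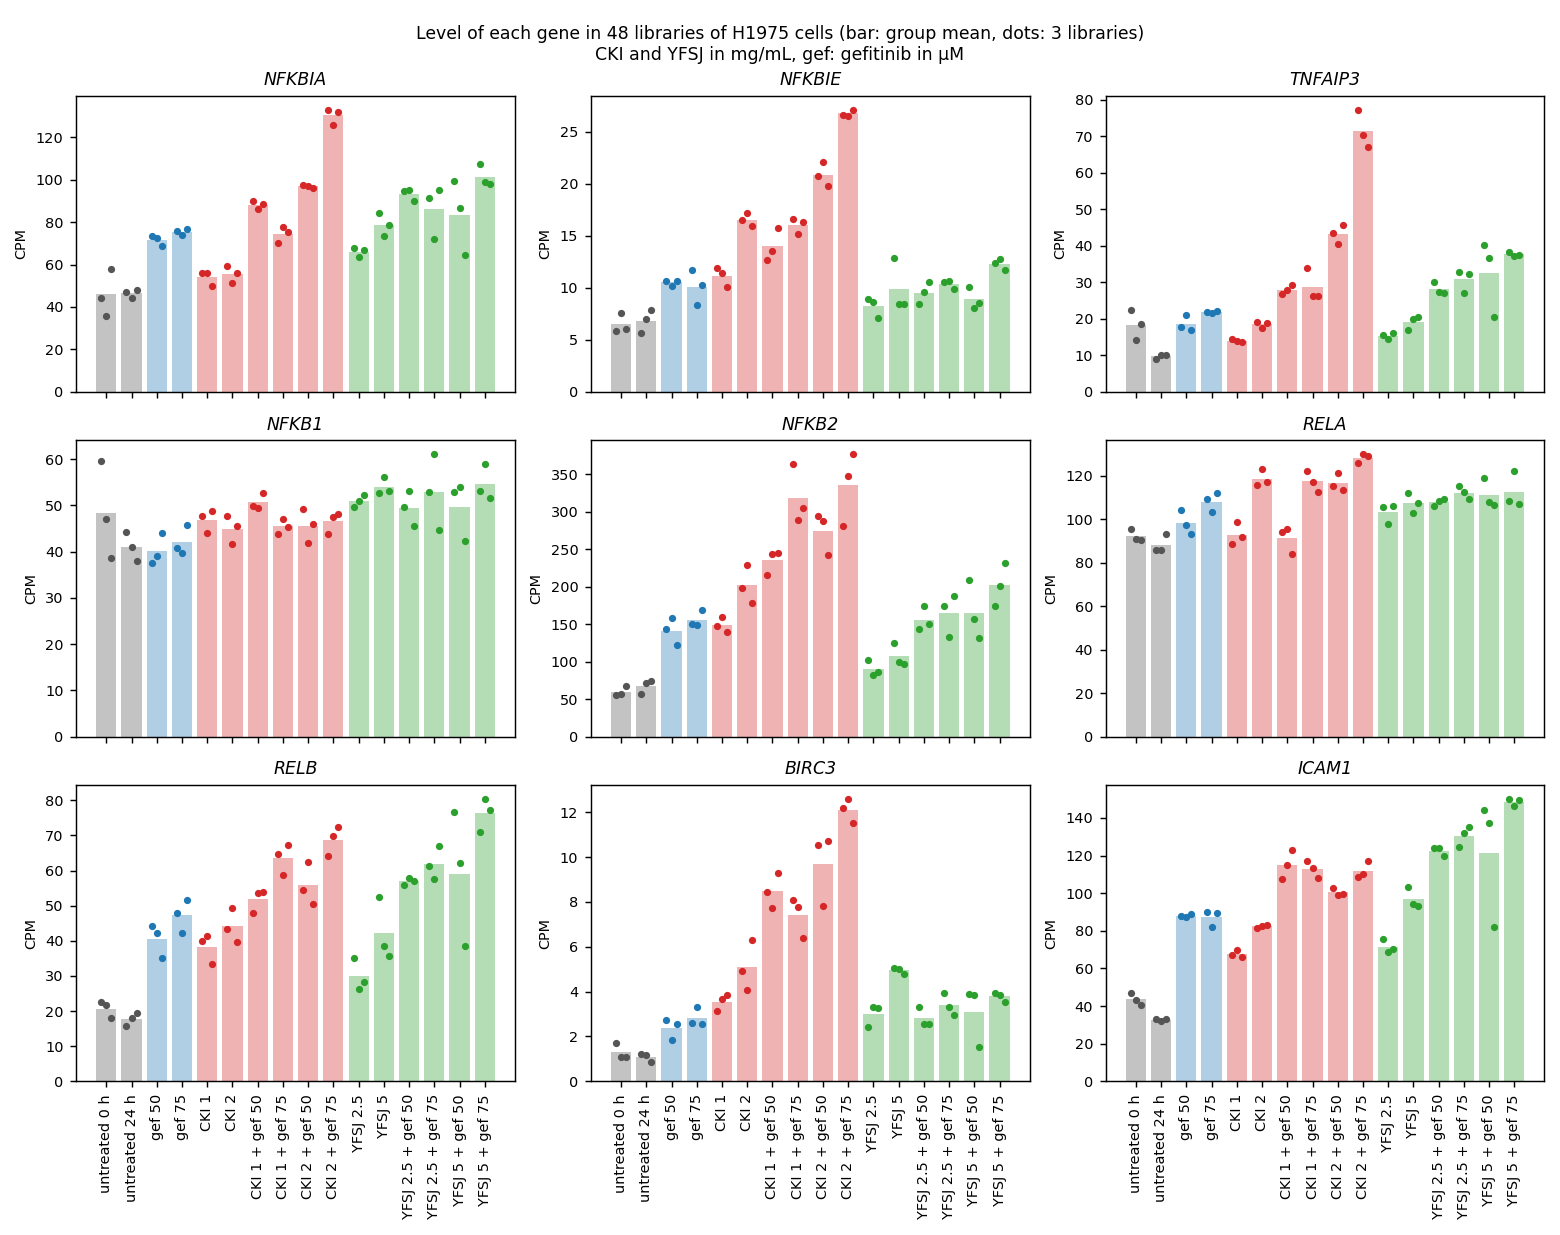
Level of each of the 9 genes in CPM (linear axis from 0) in all 16 groups: bars are group means and dots the 3 libraries. Groups with CKI are red, with YFSJ green, with gefitinib alone blue and untreated grey. The red bar of 2 mg/mL CKI with 75 µM gefitinib is the highest for NFKBIA, NFKBIE, TNFAIP3, NFKB2, RELA and BIRC3, and the last green bar for NFKB1, RELB and ICAM1.

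The comparison of untreated cells at 24 h with those at 0 h shows what a day of culture did without any agent. The feedback gene TNFAIP3 was at 22.4, 14.2 and 18.6 CPM at 0 h and at 9.02, 10.1 and 10.0 CPM at 24 h, with no overlap. It fell by 0.92 on the log2 scale (SE 0.15, adjusted p = 3.55e-05). ICAM1 fell from 47.1, 43.2 and 40.7 to 33.2, 32.1 and 33.3 CPM, by 0.41 on the log2 scale (SE 0.11, adjusted p = 0.00411). These 2 of the 9 genes were called lower, against 14.4% of all genes tested, and none was called higher, against 10.8%. The other 7 had log2 fold changes from -0.24 to 0.17, and their libraries overlapped between the times. Against library 3 at 0 h alone, TNFAIP3 kept its call, at -0.95 on the log2 scale (adjusted p = 0.00251), while ICAM1, at -0.32, was not called (adjusted p = 0.479). That fit has 1 library in an arm, which is assumed to vary like the other groups, and it called 0.684% of all genes lower. ICAM1 also lost it without library 1 at 0 h (adjusted p = 0.0561), and NFKB1 was called lower without library 3 at 0 h (adjusted p = 0.0054).

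Gefitinib alone was set against the untreated 24 h libraries. Of the 9 genes, it raised the targets BIRC3 and ICAM1, the inhibitors and the alternative-branch subunits, while NFKB1 was nearly level. At 75 µM, 4 of 21 other target genes were called higher and 3 lower, against 27.6% and 27.1% of all genes tested. ICAM1 rose from 33.2, 32.1 and 33.3 CPM to 87.7, 87.2 and 88.8 CPM at 50 µM and 90.1, 82.1 and 89.6 CPM at 75 µM, so that every treated library lay above every untreated one. The log2 fold changes were 1.42 (SE 0.11) and 1.41 (SE 0.11), with adjusted p = 1.38e-15 and 1.82e-15. BIRC3 rose from 1.23, 1.16 and 0.868 CPM to 2.72, 1.86 and 2.57 and to 2.6, 3.31 and 2.54 CPM. Its log2 fold changes were 1.13 at 50 µM and 1.37 at 75 µM (SE 0.27 at both doses, adjusted p = 0.00044 and 2.37e-05).

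Among the inhibitors, TNFAIP3 went from 9.02, 10.1 and 10.0 CPM to 21.8, 21.6 and 22.2 CPM at 75 µM, a log2 fold change of 1.17 (SE 0.15, adjusted p = 8.99e-09). At 50 µM its mean was 18.6 CPM, beside 18.4 CPM in untreated cells at 0 h. NFKBIA rose by 0.62 and 0.70 and NFKBIE by 0.63 and 0.57 on the log2 scale at 50 and 75 µM, the highest adjusted p being 0.000691. Of the subunits, RELB rose most, from 15.7, 17.9 and 19.4 CPM to 47.9, 42.3 and 51.7 CPM at 75 µM (log2 fold change 1.42, SE 0.16, adjusted p = 3.62e-10). NFKB2, its partner in the alternative branch, rose from 57, 72 and 73.5 CPM to 150.0, 149 and 169 CPM (log2 fold change 1.21, SE 0.15, adjusted p = 3.52e-09). The subunits of the classical branch had smaller values. RELA rose by 0.29 at 75 µM (adjusted p = 0.000477) but was not called at 50 µM (0.15, adjusted p = 0.0609). NFKB1 had log2 fold changes of -0.03 and 0.03, with 95% intervals from -0.25 to 0.19 and from -0.19 to 0.26.

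In all, 7 of the 9 genes were called higher at 50 µM and 8 at 75 µM, against 27.6% of all genes tested at either dose. The median log2 fold change of the 9 was 0.94 at 50 µM and 1.17 at 75 µM, and that of all genes was 0.03 and 0.02. Between the doses none of the 9 was called, while 0.0317% of all genes were called higher. By edgeR none reached an unadjusted p under 0.05 there, and by DESeq2 0 were called. The largest difference between the doses was 0.24 for BIRC3, with a 95% interval from -0.23 to 0.72. For ICAM1 the interval ran from -0.22 to 0.20, so a dose difference of the size of the whole response was outside it. The summed leukocyte markers, mostly CSF1R, had 16.2 to 20.7 CPM in untreated cells at 24 h and 22.5 to 26.1 CPM with 75 µM gefitinib, and their part in the result was not tested.

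CKI alone was compared with the same untreated cells. With it BIRC3 rose more than any other gene of the 9, and NFKBIA was not called. At 1 mg/mL BIRC3 had 3.15, 3.67 and 3.85 CPM and at 2 mg/mL 4.91, 4.09 and 6.29 CPM, all above the untreated libraries at 1.23, 1.16 and 0.868 CPM. The log2 fold changes were 1.71 (SE 0.25, adjusted p = 6.97e-07) and 2.22 (SE 0.24, adjusted p = 2.4e-10). ICAM1 rose to 67.2, 69.8 and 66.2 CPM at 1 mg/mL and to 81.7, 82.3 and 82.8 CPM at 2 mg/mL, with log2 fold changes of 1.04 and 1.32 (adjusted p = 1.11e-10 and 3.1e-14). Both target genes thus lay above every untreated library at either dose.

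NFKB2 rose from 57, 72 and 73.5 CPM to 198, 229 and 178 CPM at 2 mg/mL (log2 fold change 1.58, SE 0.15, adjusted p = 7.55e-12). RELB rose to 43.4, 49.3 and 39.6 CPM (log2 fold change 1.32, SE 0.16, adjusted p = 3.15e-09), and RELA rose by 0.43 on the log2 scale (adjusted p = 2.04e-06). The inhibitors did not move alike. NFKBIE rose from 5.64, 6.96 and 7.87 CPM to 16.5, 17.2 and 15.9 CPM at 2 mg/mL (log2 fold change 1.28, SE 0.14, adjusted p = 1.03e-10). TNFAIP3 rose to 19, 17.6 and 18.7 CPM (0.92, adjusted p = 1.71e-06). NFKBIA, the inhibitor best known for feedback, had 59.5, 51.1 and 55.8 CPM against 46.9, 44.4 and 47.8 CPM in untreated cells. Its libraries did not overlap, but its log2 fold change of 0.26 missed the threshold (adjusted p = 0.0525). Without library 2 of this group it was called (adjusted p = 0.0357), as it was under 5 other settings, with log2 fold changes from 0.26 to 0.46.

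Of the 9 genes, 6 were called higher with 1 mg/mL CKI, against 13.2% of all genes tested, and 7 with 2 mg/mL, against 24.1%. The median of the 9 was 0.71 and 1.28 on the log2 scale, and that of all genes -0.03 and -0.01. From the lower to the higher dose 6 of the 9 rose, against 15.1% of all genes: NFKBIE (0.58), BIRC3 (0.51), NFKB2 (0.44), TNFAIP3 (0.40), RELA (0.35) and ICAM1 (0.28). Only NFKBIE (adjusted p = 0.000505) and RELA (adjusted p = 0.000129) kept that call when any 1 of the 6 libraries was left out. The calls of BIRC3 and ICAM1 were lost in 5 of the 6 such fits (adjusted p up to 0.285 and 0.0832), that of TNFAIP3 in 4 (up to 0.0783) and that of NFKB2 in 2 (up to 0.102). Summed fibroblast markers, nearly all COL1A1 and COL1A2, had 479 to 554 CPM in untreated cells at 24 h and 218 to 269 CPM with 2 mg/mL CKI, while DCN, a defining marker, had a median of 0 CPM. Lung line markers had 7194 to 8224 CPM in untreated cells and 3188 to 3418 CPM with 2 mg/mL CKI, and leukocyte markers 16.2 to 20.7 and 21.7 to 24.0 CPM. The part of these 3 lists in the result was not tested.

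YFSJ alone was compared with the same untreated cells, so the responses to the 3 agents share those 3 libraries. At 5 mg/mL it raised all 9 genes, NFKB1 included, in a comparison where few genes changed. BIRC3 rose from 1.23, 1.16 and 0.868 CPM to 5.04, 5.01 and 4.78 CPM (log2 fold change 2.18, SE 0.24, adjusted p = 1.98e-08). ICAM1 rose from 33.2, 32.1 and 33.3 CPM to 103, 94.3 and 93.3 CPM (log2 fold change 1.56, SE 0.11, adjusted p = 1.01e-14). RELB rose to 52.6, 38.5 and 35.8 CPM (1.26, adjusted p = 4.66e-07) and NFKB2 to 125, 99.1 and 96.9 CPM (0.66, adjusted p = 0.00361). The inhibitor NFKBIA, which was not called with CKI, rose to 84.1, 73.7 and 78.9 CPM (0.77, SE 0.11, adjusted p = 8.1e-06).

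TNFAIP3 rose by 0.98 on the log2 scale (adjusted p = 1.87e-05), to 16.9, 19.96 and 20.5 CPM. Smaller rises were those of NFKBIE (0.54), NFKB1 (0.40) and RELA (0.28), with adjusted p = 0.0119, 0.0191 and 0.0094. NFKB1 had 52.8, 56.1 and 53.1 CPM against 44.2, 40.9 and 38 CPM, with no overlap. All 9 were called, against 4.28% of all genes tested, with a median of 0.77 for the 9 and -0.01 for all genes. Without library 1 of this group 5 were called: NFKBIE was at 0.31 on the log2 scale (adjusted p = 0.254), and NFKB1, NFKB2 and RELA had adjusted p from 0.0503 to 0.0695. NFKB1 also lost its call in 3 other fits that left out 1 library (adjusted p up to 0.0867), RELA in 2 others, and NFKBIE without library 1 of the untreated cells (adjusted p = 0.126).

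At 2.5 mg/mL 5 of the 9 were called higher, against 2.01% of all genes tested: ICAM1 (1.12, adjusted p = 3.27e-10), BIRC3 (1.47, adjusted p = 0.000286), RELB (0.76, adjusted p = 0.00326), NFKBIA (0.51, adjusted p = 0.00564) and TNFAIP3 (0.66, adjusted p = 0.00785). ICAM1 had 75.5, 68.6 and 70.4 CPM in this group, all above the untreated libraries. The median of the 9 was 0.51, against -0.00 for all genes. All 3 libraries of the group were in the ALB set, and with a term for that set only ICAM1 and BIRC3 were called. The share of all genes called higher fell there too, from 2.01% to 0.196%. RELB then had a log2 fold change of 0.91 (adjusted p = 0.0525), TNFAIP3 0.78 (adjusted p = 0.0884) and NFKBIA 0.45 (adjusted p = 0.274), so 2 of these values were larger than without the term. TNFAIP3 also lost its call without untreated library 1 or library 3 of this group (adjusted p = 0.0564 and 0.057), and NFKBIA without untreated library 2 (adjusted p = 0.0503). Lung line markers had 5812 to 6768 CPM at 2.5 mg/mL and 5531 to 6506 CPM at 5 mg/mL, against 7194 to 8224 CPM in untreated cells. Endothelial markers had 3.40 to 3.94 and 2.57 to 3.38 CPM, against 1.41 to 2.70 CPM, and the part of either list was not tested.

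Between the YFSJ doses only ICAM1 was called, at 0.44 (SE 0.10, adjusted p = 0.025), against 0.019% of all genes called higher. The call was lost in each of the 6 fits that left out 1 library (log2 fold changes from 0.39 to 0.48, adjusted p up to 0.262) and with the term for the ALB set (0.41, adjusted p = 1). BIRC3 went from 2.43, 3.33 and 3.28 to 5.04, 5.01 and 4.78 CPM without overlap, but its difference of 0.71 had an adjusted p of 0.148. RELB differed by 0.50 (adjusted p = 0.257).

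The 2 preparations were set side by side at their higher doses, 2 mg/mL CKI and 5 mg/mL YFSJ, which differ in mass per volume. NFKB2 (0.92, adjusted p = 1.21e-06) and NFKBIE (0.74, adjusted p = 5.45e-06) were higher with CKI. NFKBIA (-0.51, adjusted p = 0.000172), NFKB1 (-0.27, adjusted p = 0.0352) and ICAM1 (-0.24, adjusted p = 0.0454) were lower with CKI. These counts of 2 and 3 stand against 24.1% of all genes called higher and 26.7% called lower. BIRC3 had similar levels of 4.91, 4.09 and 6.29 and 5.04, 5.01 and 4.78 CPM, with a difference of 0.04 and a 95% interval from -0.35 to 0.42. The differences of ICAM1 and NFKB1 rest on the scaling. With plain library sizes, which move the median of all genes from -0.01 to 0.18, they were -0.04 and -0.07 (adjusted p = 0.782 and 0.633), and leaving out 1 library ended the ICAM1 call in 6 of 6 fits (adjusted p up to 0.17) and the NFKB1 call in 5 (up to 0.144).

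**Figure D2:**
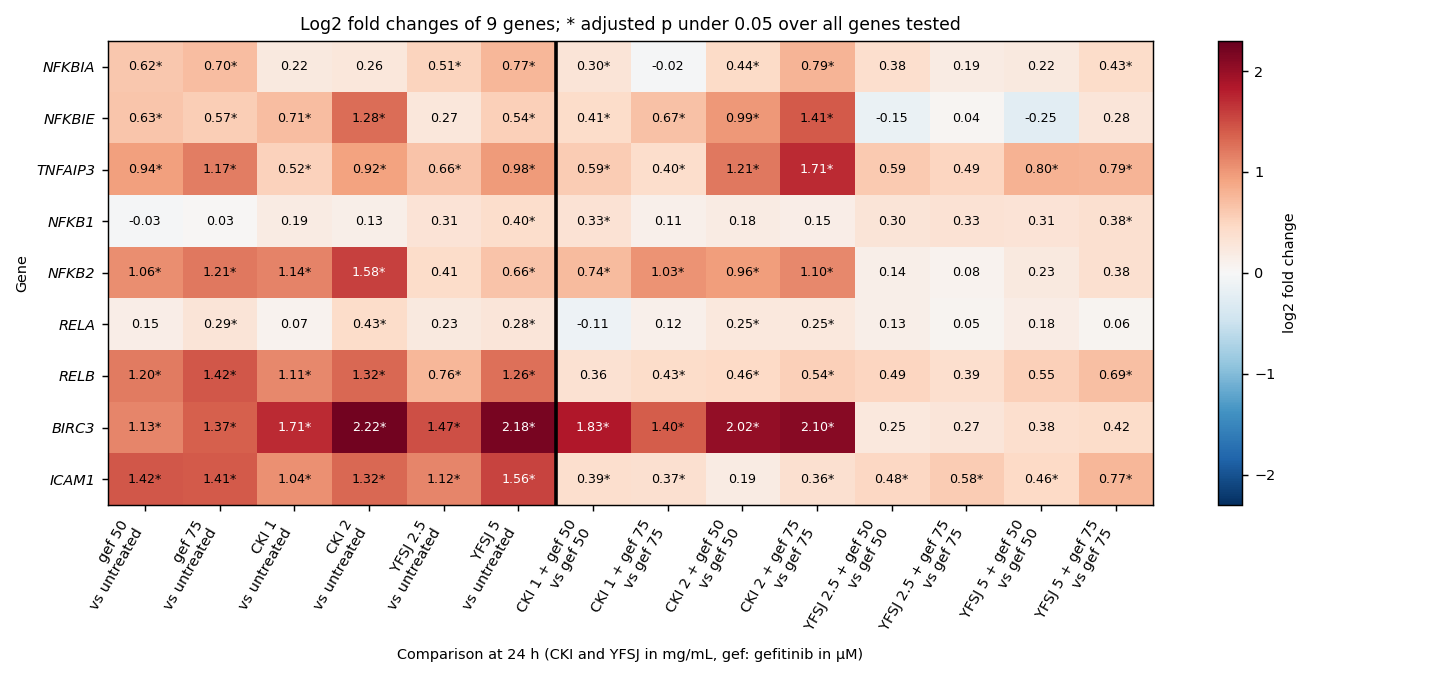
Log2 fold change of each gene (rows) for single agents against untreated cells at 24 h (left of the black line) and for preparations added to gefitinib against the same dose of gefitinib alone (right of it), with colour from blue (lower) to red (higher) and an asterisk for adjusted p under 0.05. The row of BIRC3 shows 1.40 to 2.10 where CKI was added to gefitinib and 0.25 to 0.42 where YFSJ was added.

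CKI added to gefitinib was compared with the same dose of gefitinib alone. The addition raised BIRC3 at every pair of doses and, with 2 mg/mL CKI, the feedback gene TNFAIP3 and both I-kappaB genes. With 1 mg/mL CKI, TNFAIP3 and NFKBIE were also called higher at both gefitinib doses. NFKBIA was called higher with 1 mg/mL CKI only at 50 µM gefitinib (0.30, adjusted p = 0.0305). TNFAIP3 had 26.8, 27.7 and 29.3 CPM with 1 mg/mL CKI and 50 µM gefitinib. BIRC3 had 2.6, 3.31 and 2.54 CPM with 75 µM gefitinib and 12.2, 12.6 and 11.5 CPM when 2 mg/mL CKI was added, a log2 fold change of 2.10 (SE 0.20, adjusted p = 2.92e-12). At the other 3 dose pairs it rose by 1.40 to 2.02, and no library overlapped with gefitinib alone. TNFAIP3 rose from 21.8, 21.6 and 22.2 to 77.2, 70.2 and 67 CPM with 2 mg/mL CKI and 75 µM gefitinib (1.71, SE 0.14, adjusted p = 4.06e-14). With 50 µM it rose from 17.8, 21.1 and 17.1 to 43.5, 40.4 and 45.5 CPM (1.21, adjusted p = 8.16e-10). The lowest library with 2 mg/mL CKI and 75 µM gefitinib was thus above the highest of any other group.

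The I-kappaB genes had larger values at the higher CKI dose, a difference that was not tested on gefitinib. NFKBIE rose from 11.7, 8.37 and 10.3 to 26.7, 26.5 and 27.1 CPM with 2 mg/mL CKI and 75 µM gefitinib (1.41, SE 0.13, adjusted p = 1.43e-12), and by 0.67 with 1 mg/mL. NFKBIA rose from 75.8, 73.8 and 76.6 to 133, 126 and 132 CPM at 2 mg/mL (0.79, SE 0.11, adjusted p = 6.04e-08). At 1 mg/mL with 75 µM it had 70.2, 77.9 and 75.2 CPM, overlapping gefitinib alone (-0.02, 95% interval from -0.24 to 0.21). NFKB2 rose at all 4 dose pairs, by 0.74 to 1.10, and reached 281, 348 and 376 CPM. RELB rose by 0.43 to 0.54 at 3 pairs and was not called at the fourth (0.36, adjusted p = 0.0615). ICAM1 rose by 0.36 to 0.39 at 3 pairs and was not called with 2 mg/mL CKI and 50 µM gefitinib (0.19, adjusted p = 0.105). RELA rose by 0.25 with 2 mg/mL CKI at either gefitinib dose, and NFKB1 was called only with 1 mg/mL CKI and 50 µM gefitinib (0.33, adjusted p = 0.0149).

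With 1 mg/mL CKI 7 of the 9 were called higher at 50 µM gefitinib, against 15.5% of all genes tested, and 6 at 75 µM, against 17.3%. With 2 mg/mL 7 were called at 50 µM, against 26.6%, and 8 at 75 µM, against 28.8%. The median of the 9 was between 0.39 and 0.79, and that of all genes between -0.01 and 0.00. For 1 mg/mL CKI with 50 µM gefitinib the count fell to 4 without library 2 of gefitinib alone or library 3 of the combination. There the NFKBIA call was lost in 5 of 6 fits that left out 1 library (adjusted p up to 0.086), the NFKB1 call in 3 (up to 0.0809) and the NFKBIE call in 2 (up to 0.106). With 75 µM the TNFAIP3 and RELB calls were each lost in 3 fits (up to 0.211 and 0.108), and with 2 mg/mL and 50 µM the RELB call in 2 (up to 0.0611). With a term for the ALB set, which covers all 3 libraries of 2 mg/mL CKI with 75 µM gefitinib, the same 8 genes were called there, TNFAIP3 at 1.83 and BIRC3 at 1.98. The calls for 1 mg/mL CKI with 75 µM and for 2 mg/mL with 50 µM gefitinib were also kept with the term, BIRC3 being at 1.32 and 1.94. Within 2 mg/mL CKI with 50 µM gefitinib, BIRC3 had 10.6 and 10.7 CPM in the libraries of the set and 7.81 CPM in the library outside it. TNFAIP3, NFKB1 and ICAM1 were also higher in the set there, NFKBIE, RELA and RELB were lower, and NFKBIA and NFKB2 lay on both sides. Within 1 mg/mL CKI with 75 µM gefitinib, TNFAIP3 had 26.1 and 26.2 CPM in the set and 33.9 CPM outside it. NFKBIE, NFKB2, RELA, BIRC3 and ICAM1 were also lower in the set there, NFKBIA and NFKB1 were higher, and RELB lay on both sides. These differences were not tested.

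YFSJ added to gefitinib was compared in the same way, against the same gefitinib libraries. ICAM1 was the gene called at all 4 dose pairs, and BIRC3 was called at none. ICAM1 had 90.1, 82.1 and 89.6 CPM with 75 µM gefitinib and 149.9, 146 and 149 CPM when 5 mg/mL YFSJ was added (0.77, SE 0.10, adjusted p = 2.28e-06). It reached 124, 132 and 135 CPM with 2.5 mg/mL (0.58, adjusted p = 0.00138), a call kept without library 2 of that group. TNFAIP3 rose from 21.8, 21.6 and 22.2 to 38.4, 37.1 and 37.6 CPM with 5 mg/mL YFSJ and 75 µM gefitinib (0.79, SE 0.14, adjusted p = 0.000352). In that group RELB (0.69, adjusted p = 0.00344), NFKBIA (0.43, adjusted p = 0.0166) and NFKB1 (0.38, adjusted p = 0.0387) rose too. BIRC3 had 3.96, 3.87 and 3.52 CPM there against 2.6, 3.31 and 2.54 CPM, no overlap, and its log2 fold change of 0.42 (95% interval from -0.02 to 0.87) was not called.

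With 2.5 mg/mL YFSJ 1 of the 9 genes, ICAM1, was called higher at 50 µM gefitinib, against 0.0633% of all genes tested, and 1 at 75 µM, again ICAM1, against 0.994%. With 5 mg/mL 2 were called at 50 µM, ICAM1 and TNFAIP3, against 0.532%, and 5 at 75 µM, against 1.79%. The median of the 9 was between 0.27 and 0.42, and that of all genes between -0.01 and 0.00. At 2.5 mg/mL TNFAIP3 just missed the threshold (0.59 and 0.49, adjusted p = 0.0824 and 0.0515) and was called by DESeq2 at both gefitinib doses. The ICAM1 call with 2.5 mg/mL and 50 µM was lost in all 6 fits that left out 1 library (0.47 to 0.49, adjusted p up to 0.238). With 5 mg/mL and 75 µM the count fell to 3 without library 1 or library 2 of gefitinib alone or library 1 of the combination. The calls of NFKBIA (adjusted p up to 0.101) and NFKB1 (up to 0.201) were the ones lost. NFKB1 was called with 2.5 mg/mL and 75 µM without library 3 of that group (adjusted p = 0.0233).

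The group with 5 mg/mL YFSJ and 50 µM gefitinib held 1 library apart from the others. ICAM1 had 144, 137 and 81.9 CPM in its libraries 1, 2 and 3, against 87.7, 87.2 and 88.8 CPM with gefitinib alone, and TNFAIP3 had 40.2, 36.7 and 20.6 CPM. Library 3 lay within or below the range of gefitinib alone for both, and BIRC3 there had 1.53 CPM against 3.88 and 3.84 CPM. Without library 3, 6 of the 9 genes were called: ICAM1 at 0.68, TNFAIP3 at 1.04, RELB at 0.78 (adjusted p = 0.000109), BIRC3 at 0.70 (adjusted p = 0.0417), NFKB1 at 0.41 (adjusted p = 0.0285) and NFKBIA at 0.38 (adjusted p = 0.0368). Without library 1 or library 2 of the group no gene was called, with TNFAIP3 at 0.62 (adjusted p = 0.101) and ICAM1 at 0.32 (adjusted p = 0.375) as the lowest values. Without library 1 or library 2 of gefitinib alone 1 was called.

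The same combinations were also set against the preparation alone, a comparison added after the data were seen. Adding 75 µM gefitinib to 2 mg/mL CKI raised 7 of the 9 genes, against 15.6% of all genes tested. TNFAIP3 rose from 19, 17.6 and 18.7 to 77.2, 70.2 and 67 CPM (1.96, SE 0.14, adjusted p = 3.52e-14). NFKBIA, which CKI alone had not moved past the threshold, rose from 59.5, 51.1 and 55.8 to 133, 126 and 132 CPM (1.23, SE 0.11, adjusted p = 3.6e-11). BIRC3 rose by 1.25 (adjusted p = 1.03e-06), and NFKB1 (0.05) and RELA (0.11) were not called. With 50 µM gefitinib 4 rose, against 6.31% of all genes: TNFAIP3 (1.23), BIRC3 (0.93), NFKBIA (0.81) and NFKB2 (0.45). The NFKB2 call was lost in 4 of 6 fits that left out 1 library (adjusted p up to 0.184). With the term for the ALB set all these calls were kept, TNFAIP3 being at 2.07 with 75 µM and 1.31 with 50 µM gefitinib.

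On a background of 5 mg/mL YFSJ, BIRC3 was lower with gefitinib than without it. BIRC3 had 5.04, 5.01 and 4.78 CPM with YFSJ alone and 3.88, 3.84 and 1.53 CPM with 50 µM gefitinib added, a fall of 0.67 on the log2 scale (SE 0.20, adjusted p = 0.00502). Without library 3 of the combination the value was -0.36 and the call was lost (adjusted p = 0.119). With 75 µM it had 3.96, 3.87 and 3.52 CPM, each below every library of YFSJ alone, and a log2 fold change of -0.38 that was not called (adjusted p = 0.102). The other target gene, ICAM1, rose by 0.61 with 75 µM (adjusted p = 1.65e-06), as did TNFAIP3 by 0.98, NFKB2 by 0.92 and RELB by 0.85, each with no overlap.

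In these added comparisons 6 of the 9 rose with 75 µM gefitinib on YFSJ, against 25.9% of all genes tested, the 2 not yet named being NFKBIA (0.36) and NFKBIE (0.31). The NFKBIE call was lost in 5 of 6 fits that left out 1 library (adjusted p up to 0.256). With 50 µM 4 rose and 1, BIRC3, fell, against 26.7% of all genes called higher and 26.2% called lower. TNFAIP3 (0.76) and NFKB2 (0.63) rose without overlap, while RELB and ICAM1 overlapped and lost their calls without library 1 (adjusted p = 0.16 and 0.163), which left 3 called. ICAM1 lost its call without library 2 as well (adjusted p = 0.093), and RELB without library 3 of YFSJ alone (adjusted p = 0.0532).

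The response to both agents together was tested against the sum of the responses to each, on the log2 scale and averaged over the 4 dose pairs of a preparation. An interaction of 0 means that the log2 changes add. With CKI, ICAM1 (-0.86, SE 0.11, adjusted p = 2.18e-08), RELB (-0.77, SE 0.17, adjusted p = 0.000225) and NFKB2 (-0.40, SE 0.16, adjusted p = 0.036) fell short of the sum, against 19.5% of all genes called lower. The values of BIRC3 were close to the sum, at -0.13 with a 95% interval from -0.67 to 0.42. With YFSJ, BIRC3 (-1.50, SE 0.27, adjusted p = 0.000906) and ICAM1 (-0.77, SE 0.11, adjusted p = 2.44e-05) fell short, against 1.05% of all genes called lower. The other 7 had YFSJ values from -0.48 to -0.03, none of them called.

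The single dose pairs are given as values, and they are not independent, since they share untreated libraries and single-agent groups. For 5 mg/mL YFSJ with 75 µM gefitinib, BIRC3 was 1.80 above untreated cells on the log2 scale where the sum of the single responses was 3.55, a difference of -1.76 (SE 0.33). Over the 4 YFSJ pairs that difference ran from -1.80 to -1.20. ICAM1, RELB and NFKB2 lay below the sum in 4 of 4 pairs with either preparation, ICAM1 by as much as -1.13 with 2 mg/mL CKI and 50 µM gefitinib. TNFAIP3 and NFKBIA lay above the sum in 3 of 4 CKI pairs and in 0 of 4 YFSJ pairs. Their largest excess was at 2 mg/mL CKI with 75 µM gefitinib, 0.78 (SE 0.20) for TNFAIP3 and 0.53 (SE 0.16) for NFKBIA. Averaged over the CKI pairs neither was called (adjusted p = 0.215 and 0.365), and the single dose pairs were not tested. The NFKB2 interaction with CKI was lost with the term for the ALB set (-0.29, adjusted p = 0.221) and in 5 of 27 fits that left out 1 library, with -0.29 and adjusted p = 0.181 without untreated library 1.

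**Figure D3:**
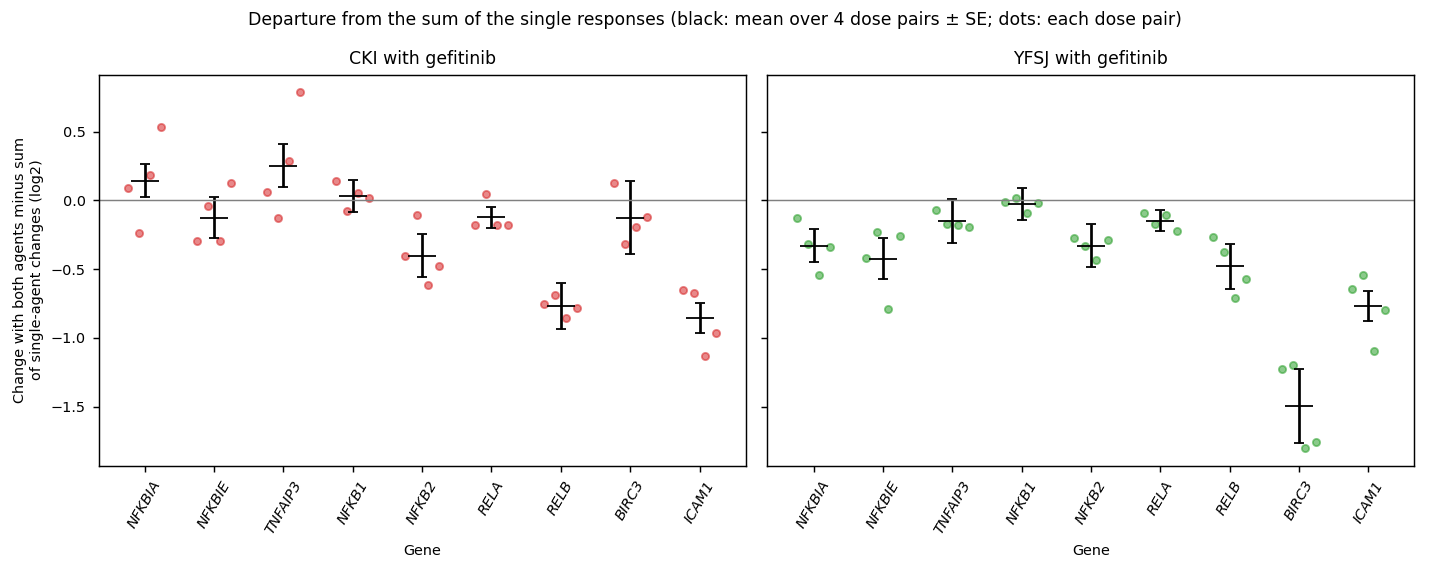
Change with both agents minus the sum of the single-agent changes (log2, vertical axis) for each gene, with CKI on the left and YFSJ on the right: dots are the 4 dose pairs and the black bar is their mean ± SE from the fit. BIRC3 lies between -1.80 and -1.20 in the YFSJ panel and between -0.32 and 0.12 in the CKI panel, and ICAM1 lies below 0 in both.

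The combinations at the higher doses were compared with each other, 2 mg/mL CKI against 5 mg/mL YFSJ, each with 75 µM gefitinib. BIRC3 had 12.2, 12.6 and 11.5 CPM with CKI and 3.96, 3.87 and 3.52 CPM with YFSJ, a log2 difference of 1.68 (SE 0.19, adjusted p = 3.87e-10), where the preparations alone had differed by 0.04. TNFAIP3 was higher with CKI by 0.92 (adjusted p = 1.28e-07), and it too had been close to level between the preparations alone (-0.05, 95% interval from -0.34 to 0.23). NFKBIE (1.12), NFKB2 (0.73), NFKBIA (0.36) and RELA (0.19) were also higher with CKI. ICAM1 was higher with YFSJ, at 149.9, 146 and 149 against 109, 110.1 and 117 CPM (-0.41, adjusted p = 0.000627). These 6 and 1 of the 9 genes stand against 28% of all genes called higher and 28.4% called lower. The CKI group lies in the ALB set, with whose term NFKBIA was at 0.30 and lost its call (adjusted p = 0.129). RELA lost its call in 3 of 6 fits that left out 1 library (adjusted p up to 0.103).

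Other genes of the pathway were read from 5 lists with 74 genes, of which 67 passed the count filter. Members of the tested lists were receptors and adaptors (21 genes), activating kinases and the linear ubiquitin ligase (13), other REL and I-kappaB genes (5), other brakes (7) and other target genes (21). With 75 µM gefitinib 22 of the 67 (32.8%) were called higher and 11 (16.4%) lower than in untreated cells, against 27.6% and 27.1% of all genes tested. With 2 mg/mL CKI it was 24 (35.8%) and 11 (16.4%), against 24.1% and 27.1%. With 5 mg/mL YFSJ it was 13 (19.4%) and 0, against 4.28% and 2.2%. Their medians were 0.14, 0.13 and 0.14 on the log2 scale, against 0.02, -0.01 and -0.01 for all genes, and so smaller than the 1.17, 1.28 and 0.77 of the 9 genes. Since the 9 genes and the lists were chosen with earlier results of these data known, nothing is read from that difference. Over the day in untreated culture 7 (10.4%) were called higher, against 10.8% of all genes, and 14 (20.9%) lower, against 14.4%. Among the latter were TNIP1, a partner of the TNFAIP3 protein (-0.48, adjusted p = 0.00241), and PTGS2, the inducible cyclooxygenase gene (-1.001, adjusted p = 0.00187). TNIP1 reversed to 0.02 against library 3 at 0 h alone.

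Among the adaptors, TRAF1, a signalling adaptor that is itself a known target, rose by 1.59 with 75 µM gefitinib (adjusted p = 5.07e-12), by 2.47 with 2 mg/mL CKI (adjusted p = 7.17e-18) and by 0.66 with 5 mg/mL YFSJ (adjusted p = 0.00681). IRAK2, a kinase-like adaptor of Toll-like and interleukin-1 receptors, rose by 1.77 with CKI (adjusted p = 6.19e-13) and by 1.18 with YFSJ (adjusted p = 1.18e-06). Among the brakes, CYLD, a deubiquitinase, rose by 0.88 with gefitinib and by 1.06 with CKI (adjusted p = 7.6e-10 and 7.76e-12). The receptor gene TNFRSF1A fell by 0.44 with CKI (adjusted p = 3.3e-06), and CHUK, a catalytic subunit of the I-kappaB kinase, fell by 0.65 with gefitinib (adjusted p = 6.3e-06). Of 13 kinase and ligase genes 6 were called higher and 4 lower with 75 µM gefitinib, against 27.6% and 27.1% of all genes. RBCK1 of that list rose by 1.29 (adjusted p = 1e-12) and IKBKE by 0.91 (adjusted p = 3.2e-08). CHUK rose by 0.68 when 2 mg/mL CKI was added to 75 µM gefitinib (adjusted p = 2.61e-06). With that addition IKBKE fell by 1.22 (adjusted p = 3.23e-11) and RBCK1 by 0.65 (adjusted p = 6.74e-06). Of the 13 genes 4 were called higher and 6 lower there, against 28.8% and 29.4% of all genes. BCL3, a nuclear I-kappaB family gene, fell by 0.91 with CKI (adjusted p = 7.49e-07).

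When 2 mg/mL CKI was added to 75 µM gefitinib, 29 of the 67 (43.3%) were called higher and 17 (25.4%) lower, against 28.8% and 29.4% of all genes tested, with a median of 0.23 against -0.01. The I-kappaB genes NFKBIB (1.18, adjusted p = 1.64e-09) and NFKBIZ (1.06, adjusted p = 9.58e-05) rose beside NFKBIA and NFKBIE. The target genes split. CXCL3, a neutrophil chemokine gene, rose by 2.51 (adjusted p = 2.03e-09) and IRF1 by 1.00 (adjusted p = 7.26e-12), while SOD2, the mitochondrial superoxide dismutase gene, fell by 0.91 (adjusted p = 1.04e-06) and CFLAR, a caspase-8 inhibitor gene, by 0.47 (adjusted p = 3.34e-06). These falls are from gefitinib alone, which at 75 µM had raised SOD2 by 1.21 and CFLAR by 0.71 over untreated cells (adjusted p = 2.84e-09 and 4.5e-10). When 5 mg/mL YFSJ was added to 75 µM gefitinib, 9 (13.4%) were called higher and 1 (1.49%) lower, against 1.79% and 1.67% of all genes, with a median of 0.11 against 0.00. SOD2 rose there by 0.75 (adjusted p = 0.00109) and PTGS2 by 1.64 (adjusted p = 2.64e-06), and TNFAIP2 fell by 0.53 (adjusted p = 0.00346). In the interaction with CKI 12 of the 67 (17.9%) were called higher and 15 (22.4%) lower, against 20% and 19.5% of all genes, so both shares were near the background. In that with YFSJ 1 (1.49%) and 3 (4.48%) were called, against 0.646% and 1.05%. SOD2 (-0.62, adjusted p = 0.00136) and CFLAR (-0.32, adjusted p = 0.00222) fell short of the sum with CKI, as ICAM1 did, while IRF1 (0.94, adjusted p = 3.63e-10) exceeded it. IL6, an inflammatory cytokine gene, exceeded it with either preparation, by 1.40 with CKI (adjusted p = 0.000277) and by 1.14 with YFSJ (adjusted p = 0.0465). With YFSJ, TNFAIP2 (-0.57, adjusted p = 0.0063), BCL3 (-0.64, adjusted p = 0.0158) and TNFRSF1A (-0.31, adjusted p = 0.0296) fell short.

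**Figure D4:**
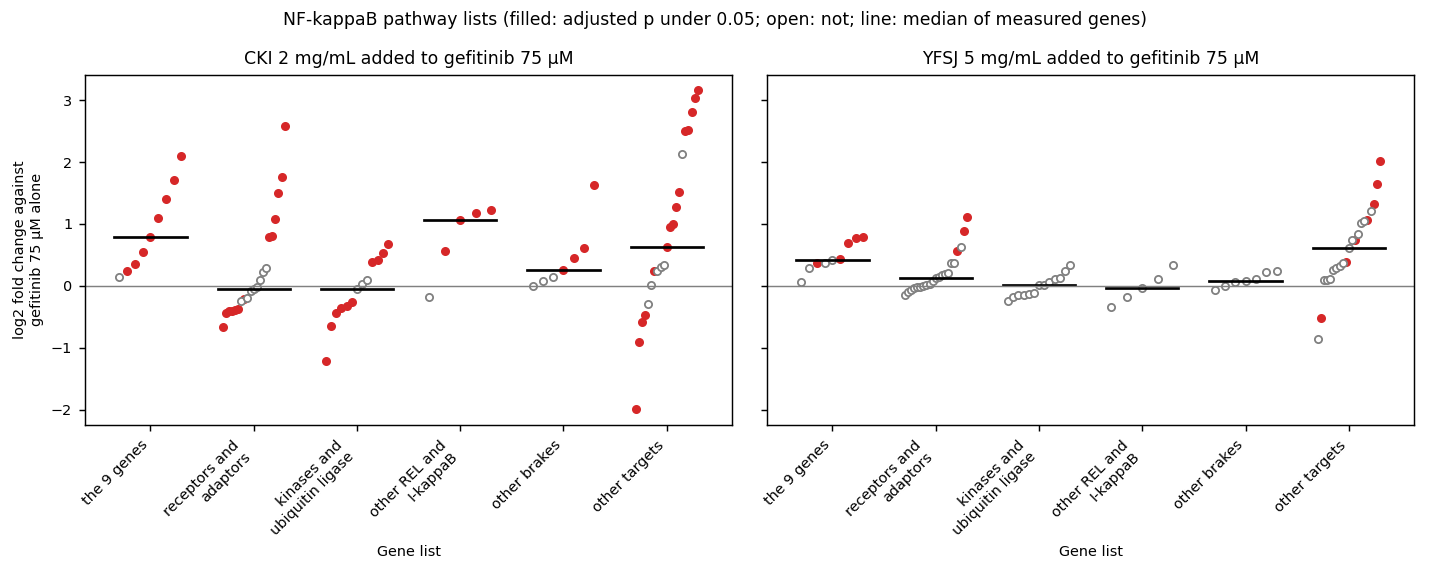
Log2 fold change against 75 µM gefitinib alone (vertical axis) when 2 mg/mL CKI (left) or 5 mg/mL YFSJ (right) was added, for the 9 genes and the 5 lists of other pathway genes: filled points passed adjusted p under 0.05, open points did not, and bars are medians. In the CKI panel filled points lie on both sides of 0 for receptors, kinases and targets, and all 8 filled points of the 9 genes lie above it.

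Across the 16 group means of log2 CPM the 9 genes did not form 1 pattern. These correlations describe groups that share libraries, depth and treatments, and they carry no test. RELB and ICAM1 were the closest pair, with Pearson's r = 0.963 and Spearman's rho = 0.891 over 16 groups. BIRC3 went with NFKBIE (r = 0.915, rho = 0.856), NFKBIE with NFKB2 (r = 0.905, rho = 0.874) and TNFAIP3 with NFKBIA (r = 0.895, rho = 0.903). NFKB1 stood apart, with r from -0.0397 with NFKBIE to 0.503 with ICAM1. Of 11139 candidate genes, those averaging 5 CPM or more, the nearest to RELB were ADGRF4 and CSF1 (r = 0.959 for both, rho = 0.862 and 0.918) and then SLC41A3 (r = 0.947, rho = 0.941). ADGRF4 was also nearest to ICAM1 (r = 0.955, rho = 0.903), followed by SLC41A3 (r = 0.942) and STC2 (r = 0.924). Nearest to BIRC3 was IRAK2 (r = 0.925, rho = 0.926), followed by SLC6A6 and IL6R (r = 0.911 for both). IL6R was also among the 3 nearest to NFKBIE (r = 0.962), behind ESRRA (r = 0.973) and SLC5A10 (r = 0.971).

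For the remaining genes, MERTK (r = 0.969), FLYWCH1 (r = 0.963) and EPHX1 (r = 0.96) were nearest to NFKB2. PDE4A (r = 0.941) and MFHAS1 (r = 0.935) were among the nearest to TNFAIP3, and UBL4A (r = 0.899), SLC41A3 and LYPD3 (r = 0.885 for both) to NFKBIA. RELA was closest to FAM83G (r = 0.936), ZSWIM4 (r = 0.917) and RANBP10 (r = 0.887). NFKB1, whose levels moved least, was closest to SQOR (r = 0.892), HIRA (r = 0.794) and KIF21B (r = 0.735).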

How the data were processed

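RNA-seq was measured in 48 libraries of H1975 cells, 3 in each of 16 groups taken from the labels. The deposited values are raw counts per gene symbol, which the authors made from unstranded paired-end reads. Reads were trimmed with Trim Galore 0.4.2, aligned to hg19 with STAR 2.5.3a and handled with edgeR, per the submitters' processing notes. The counting tool and annotation are not given in the sources used here. From the counts, edgeR 4.0.16 in R 4.3.3 was run here with TMM factors, filterByExpr (minimum count 10, minimum total 15; 15789 of 27978 genes kept), and the two-sided quasi-likelihood test with a mean fitted for each of the 16 groups (residual degrees of freedom 32). Genes were called at a Benjamini-Hochberg adjusted p under 0.05 over all genes tested. The SE is the log2 fold change divided by the square root of F, and 95% intervals use it. Totals ran from 16428398 to 26264162 counts.

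The 9 genes and the pathway lists were chosen with earlier results of these data known. Of 26 comparisons 20 were planned and 6 (preparation alone as baseline, and CKI against YFSJ) were added after values were seen. All 9 genes were reported in every comparison, with the 2 called list genes of smallest p per direction and list in 8 comparisons, and the 3 genes of highest r, of which 1 is not reported here. Alternatives were relative log expression factors, plain library sizes, no filter, a replicate block, a term for the ALB set (over 1000 ALB counts), adjusted p under 0.01, only library 3 at 0 h, only the libraries compared, DESeq2 1.42.0 and leaving out each library. Replicate libraries differed by more than sampling noise (chi-square per gene 3.68 to 67.6).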

Additional observations from a re-analysis of the deposited data

Results flagged for a closer look

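The response to a preparation differed with and without gefitinib for 5 results, by the interaction test of edgeR over 4 dose pairs. With CKI the interaction was -0.86 for ICAM1, -0.77 for RELB and -0.40 for NFKB2 on the log2 scale. Such interactions were common with CKI, where 19.5% of all genes tested were called lower and 20% higher. With YFSJ it was -1.50 for BIRC3 and -0.77 for ICAM1, against 1.05% of all genes called lower and 0.646% higher. All 5 have the same sign in 4 of 4 dose pairs, but the pairs share untreated libraries and single-agent groups and are not independent. The NFKB2 value was not called with a term for the ALB set (-0.29, adjusted p = 0.221), while the other 4 kept their calls there. Whether the CKI and YFSJ interactions differ from each other was not tested.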

How the results depend on the processing

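Of 234 values (9 genes in 26 comparisons), 231 kept direction and side of the threshold with relative log expression factors, 219 with plain library sizes, 227 without the filter, 228 with a term for the ALB set, 217 with only the libraries compared, 224 with DESeq2 and 212 at adjusted p under 0.01. Values below the threshold whose sign changed are counted as kept. No called value of the 9 genes changed sign. Of 1782 values with 1 library left out, 1666 kept their call, 107 lost it and 9 gained one. Replicate numbers did not pair the libraries (correlations of same-numbered libraries from -0.413 to 0.351, and 0 of 120 pairs of groups with all 3 over 0.1), and with the replicate block 233 of 234 values kept their call, NFKBIA gaining one for 2 mg/mL CKI (0.26, adjusted p = 0.0488). Against library 3 at 0 h alone TNIP1 was 0.023 and TNFAIP2 -0.036, both reversed, and 1 of the 9 genes was called instead of 2; with only the libraries compared it was also 1. All genes called lower fell from 14.4% to 0.684% and 0.46% there. The cause was not tested. For 5 against 2.5 mg/mL YFSJ the count went from 1 to 0 with plain library sizes, with the ALB term and at adjusted p under 0.01. The share of all genes called higher there was 0.0127%, 0% and 0%, in place of 0.019%. With the ALB term 2.5 mg/mL YFSJ had 2 called, and 0.196% of all genes called higher in place of 2.01%. At adjusted p under 0.01 the count was 2 for the CKI doses, where 9.75% of all genes were called higher. It was 4 for 1 mg/mL CKI on 50 µM gefitinib (9.56%) and 0 for 2.5 mg/mL YFSJ on 50 µM (0.0253%). For 5 mg/mL YFSJ on 50 and 75 µM it was 1 and 3 (0.203% and 0.842%). For CKI against YFSJ it was 3, with 18.5% of all genes called higher and 21% lower. Fits with only the libraries compared leave fewer degrees of freedom. There the counts were 0 for 2.5 mg/mL YFSJ on 75 µM and 0 for 5 mg/mL on 50 µM, where 0% of all genes were called in either. For 50 µM gefitinib on YFSJ the count was 3, with 27.8% of all genes called higher and 27.9% lower. DESeq2 called 2 for 2.5 mg/mL YFSJ on either gefitinib dose, against 0.171% of all genes called higher on 50 µM and 2.01% on 75 µM. Leaving out 1 library gave 1 to 3 for the day in culture, 5 to 9 for 5 mg/mL YFSJ, 2 to 4 for the CKI doses, 0 to 0 for the YFSJ doses, 4 to 7 for 1 mg/mL CKI on 50 µM, 0 to 0 for 2.5 mg/mL YFSJ on 50 µM, 1 to 2 on 75 µM, 0 to 6 and 3 to 5 for 5 mg/mL YFSJ on 50 and 75 µM, 3 to 4 for CKI against YFSJ and 3 to 5 for 50 µM gefitinib on YFSJ. The share of all genes called was not taken in the fits that left out 1 library. Plain library sizes moved the median of all genes from -0.01 to 0.18 with 2 mg/mL CKI, and the share of called genes that were higher from 47.1% to 69%. That share moved from 42.9% to 62% for the day in culture, 50.8% to 61.1% for 50 µM gefitinib, 47.2% to 64.5% for 1 mg/mL CKI, 68.7% to 83.3% for 2.5 mg/mL YFSJ, 46.3% to 69.9% for the CKI doses, 48.9% to 71%, 49.9% to 66.9% and 49.6% to 60.1% for CKI on gefitinib (1 mg/mL on 50 and 75 µM, 2 mg/mL on 50 µM), 56.8% to 68.3% for 5 mg/mL YFSJ on 50 µM, 38.1% to 27.6% for the YFSJ interaction, 51.7% to 40.6% for 75 µM gefitinib on CKI, 50.5% to 64.9% and 50.5% to 62.3% for 50 and 75 µM on YFSJ, and 47.4% to 68.8% for CKI against YFSJ. Counts limit BIRC3 most, with 16 to 25 counts per untreated library at 24 h.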
